A study of Mus musculus with 3 samples.

Results

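FOG2 occupancy was examined at 7 genes of cardiac electrical conduction, namely the sodium channel genes Scn10a and Scn4b, the pacemaker channel gene Hcn4, the gap junction genes Gja5, Gjc1 and Gjd3, and the ankyrin gene Ank2. The genes were chosen by their known roles, with earlier results of these data known. A FOG2 peak was counted for a gene when its summit, the point of strongest signal in the peak, lay nearer to that gene's body than to any other protein-coding gene body and within 100 kb of it. By this rule 5 of the 6166 FOG2 peaks (0.0811%) belonged to the 7 genes, of 21631 protein-coding genes in all. The peaks came from ventricles dissected from mouse embryos at stage E12.5 (E counts days of gestation), with 2 FOG2 pulldown libraries and 1 input library as control. Per the protocol in the labels, the mice were Fog2flbio/flbio;Rosa26BirA/BirA, in which FOG2 carries a tag that the bacterial ligase BirA biotinylates, and the same protocol is given for the input, while the genotype label of all 3 libraries reads WT. The protocol recovers biotinylated FOG2 on streptavidin, whereas the antibody label of the pulldown libraries reads FOG2 and the deposited peak names carry the word FLAG. The protocol was followed here, but the sources differ on how FOG2 was recovered, and therefore on what the fold over input measures. About 20 ventricles were pooled for each replicate, so the cell type in which a site was occupied was not measured. Expression was not measured either, so the tissue could not be checked against marker genes. The series asks how FOG2 acts on an atrial gene network bound by TBX5 and GATA4, whereas the chromatin profiled here was ventricular.

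FOG2, encoded by Zfpm2, does not usually bind DNA by itself but is recruited through GATA factors such as GATA4, whose activity it modulates in the heart. Electrical conduction rests on sodium channels, which drive the rapid upstroke of the action potential, on pacemaker channels, which depolarise nodal cells between beats, and on connexins, which pass current from cell to cell. Ankyrins hold channels and exchangers in place at the membrane. T-box factors, NKX2-5 and GATA factors are known regulators of many of these genes.

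No FOG2 peak overlapped a gene start of the 7 genes. The starts closest to any summit were those of Gja5, with a summit 7.54 kb downstream, and Hcn4, with a summit 12.4 kb upstream. The 250 bases before each of these starts are shown because they are the points from which those distances are measured. They are reference sequence from RefSeq (GRCm38.p6, the mm10 build), and both genes lie on the plus strand. The Gja5 window is chr3:97032152-97032401 and the Hcn4 window is chr9:58822699-58822948. Capitals mark any of the motifs searched on both strands, which were AGATAA or AGATAG or TGATAA or TGATAG for GATA factors, AGGTGT for T-box factors, AAGTG for NKX2-5, GGAATG for TEAD factors, TGACAG for MEIS factors and CANNTG for E-boxes.
Gja5: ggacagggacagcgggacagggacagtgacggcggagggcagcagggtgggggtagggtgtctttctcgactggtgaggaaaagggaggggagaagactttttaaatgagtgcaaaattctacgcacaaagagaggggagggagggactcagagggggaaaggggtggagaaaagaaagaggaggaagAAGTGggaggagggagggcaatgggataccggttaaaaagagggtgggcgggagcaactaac
Hcn4: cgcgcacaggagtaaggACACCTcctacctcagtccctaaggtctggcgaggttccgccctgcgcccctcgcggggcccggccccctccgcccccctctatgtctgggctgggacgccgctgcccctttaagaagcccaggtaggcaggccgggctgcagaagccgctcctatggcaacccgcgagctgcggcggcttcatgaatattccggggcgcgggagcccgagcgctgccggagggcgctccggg

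The Gja5 window held a single match, AAGTG, whose first base was 62 bases before the start. At least one AAGTG is present in 40.7% of the 32851 windows of the same length in the reference table. The Hcn4 window also held a single match, the T-box letters read on the other strand (ACACCT), whose first base was 233 bases before the start. T-box letters are present in 11.8% of all windows. The table held 8 windows in all for Scn10a, Scn4b, Hcn4, Gja5 and Ank2, of which 4 were alternative starts of Ank2. The GATA letters were in 0 of the 8, against 26.5% of all windows. The short NKX2-5 letters were in 5 of the 8, namely every Ank2 window and that of Gja5, and the T-box letters in 1. The E-box letters were in 3, against 66.2% of all windows. The TEAD and MEIS letters were in 1 window each, against 12.6% and 15.9% of all windows. All E-box and MEIS matches were in Ank2 windows, so these counts are not counts of separate genes. In the Ank2 windows some of these letters overlap, since CAAGTG is both an E-box and an NKX2-5 match. These counts describe the letters of windows without a peak and are not evidence of binding. The sequence under the peaks was not analysed here.

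Of the 7 genes, 3 had an assigned FOG2 summit, namely Scn10a with 1, Gja5 with 2 and Ank2 with 2. An assigned summit was present at 13.6% of all protein-coding genes. Scn4b, Hcn4, Gjc1 and Gjd3 had none. When any summit within 20 kb of the gene body was counted, whichever gene it belonged to, Hcn4 and Gjd3 were added, giving 5 of the 7 genes against 13.6% of all protein-coding genes. Within 100 kb the count was the same 5 genes, against 33.3% of all genes. Both counts of any nearby summit were added after the values were seen. The closest summits of Hcn4 and Gjd3 were weak, with a −log10 q of 2.89 and 3.17. With so few genes the shares are given as a description. The values below are the authors' fold of pulldown over input at the summit and their −log10 q. In the fold 1 is added to both sides, so it lies below the plain ratio of fragments to control level. The number of pulldown fragments behind each fold was recovered from the fold and the −log10 p. Its exact 95% Poisson interval covers counting error of the pulldown only. Intervals of fold rest on the same counts and take the control level as exact, so they leave out the counting error of the input. The replicates were pooled before peaks were called, so no value has a spread between replicates. The control was input rather than a pulldown without tagged FOG2.

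Scn10a held the strongest summit of the 7 genes. Scn10a encodes a sodium channel alpha subunit best known from sensory neurons, and its locus is associated with cardiac conduction in human genetics. The gene spans 111 kb of chromosome 9 on the minus strand (119608456 to 119719322). Its peak, chr9:119632011-119632614, was 604 bp wide, with a fold of 14.0 and a −log10 q of 27.3. The summit rested on 30 pulldown fragments (20.2 to 42.8) over a control level of 1.22. With that control level taken as exact, counting error of the pulldown placed the fold between 9.58 and 19.8. It ranked 433 of 6166 peaks by fold, above 92.9% of them. Among the 2939 genes with a summit, Scn10a ranked 289 by its strongest fold.

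The Scn10a summit lay inside the gene body, 86.7 kb downstream of the annotated start and 23.8 kb from the 3′ end, or 78.5% of the way through the gene. Exons are not marked in the gene table, so it could not be called exonic or intronic. No other summit lay within 100 kb of it, the next being 115 kb away. Across all peaks the median distance to the next summit was 72.6 kb, and 43.5% of summits had none within 100 kb. The window from 250 kb before to 250 kb after the Scn10a body held 3 summits in all. The strongest of them was at chr9:119469684-119470225, 139 kb beyond the 3′ side of Scn10a and 4.35 kb from Exog, a mitochondrial nuclease gene, to which it was assigned. It was 15.7-fold over control with 31 fragments (21.1 to 44.0). Its interval overlapped that of the Scn10a summit, so the pair could not be ranked at this depth.

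Scn4b, which encodes an auxiliary beta subunit that tunes the gating of sodium channels, had no assigned summit. The gene spans 15.5 kb of chromosome 9 (45138624 to 45154155). The closest summit lay 144 kb upstream of the gene, 3.69 kb from the T cell receptor complex gene Cd3e. It was weak, at 5.04-fold with 7 fragments (2.81 to 14.4), and 155 peaks in the list had exactly this fold and p-value. It was the single summit within 250 kb of Scn4b.

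Hcn4, the main pacemaker channel gene of the sinoatrial node, had no assigned summit but had weak ones on both sides. The gene spans 40.2 kb of chromosome 9 (58822949 to 58863175). Upstream it is separated by 0.243 kb from Rec114, a meiotic recombination gene, and 3 summits lay inside that neighbour, 12.4, 44.8 and 147 kb from Hcn4. The closest, chr9:58810414-58810615, was 4.51-fold with 9 fragments (4.12 to 17.1) and a −log10 q of 2.89. The summit at 44.8 kb was 5.04-fold with 7 fragments (2.81 to 14.4), and the one at 147 kb was 4.51-fold with 9 fragments. Downstream, a summit of 5.60-fold with 8 fragments (3.45 to 15.8) lay 23.9 kb from Hcn4, inside Neo1, which encodes a netrin family receptor. All 4 had a −log10 q under 5, and their counting intervals overlapped throughout. All 4 were assigned to a neighbour because their summits lay inside its body. Distance alone does not tell on which gene such a site acts.

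Gja5 was the only connexin gene among the 3 examined with an assigned summit. Gja5 encodes Cx40, the gap junction protein of the atria and of the ventricular conduction system. The gene spans 21.2 kb of chromosome 3 (97032402 to 97053634). The peak inside the gene, chr3:97039827-97040077, lay 7.54 kb downstream of the start and was 4.60-fold with 12 fragments (6.20 to 21.0), over a control level of 1.83 and with a −log10 q of 3.72. The second peak, chr3:97062976-97063269, lay 9.50 kb beyond the 3′ end and was 5.80-fold with 9 fragments (4.12 to 17.1), over a control level of 0.724 and with a −log10 q of 4.72. Gja5 therefore had no assigned summit when a −log10 q of at least 5 was required. By fold the outer peak was the higher and by fragments the inner one, and their intervals overlapped, so no order between them was detectable. The outer summit also lies within 4930573H18Rik, a long noncoding RNA gene that overlaps the 3′ part of Gja5 (97046656 to 97092785).

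A much stronger summit stood on the upstream side of Gja5. The peak chr3:96970952-96971423 was 19.7-fold with 33 fragments (22.7 to 46.3) and a −log10 q of 38.9, and ranked 188 of 6166 peaks by fold. Its summit was 61.2 kb upstream of the Gja5 body, and it was not assigned to Gja5. The fragment interval of this summit did not overlap that of either summit assigned to Gja5. These 3 were all the summits within 250 kb of Gja5.

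The other connexin genes among the 7 had no assigned summit. Gjc1 encodes Cx45, found in the nodes and throughout the early embryonic heart, and spans 20.2 kb of chromosome 11 (102799477 to 102819686). It was the only gene of the 7 with no summit within 250 kb. Its closest was 382 kb away inside Efcab15, at 5.60-fold with 8 fragments (3.45 to 15.8). Gjd3 encodes a connexin of the mouse atrioventricular node and is the shortest of the 7 genes, at 3.07 kb (chromosome 11, 98979947 to 98983020). Its closest summit was 16.5 kb away, inside the retinoic acid receptor gene Rara, at 4.94-fold with 7 fragments (2.81 to 14.4). A second lay 59.2 kb away on the other side, inside Igfbp4, at 4.26-fold with 6 fragments (2.20 to 13.1).

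Ank2 had 2 summits, both deep inside the gene. Ank2 encodes ankyrin-B, an adaptor that anchors ion pumps, exchangers and channels in cardiomyocytes, and human variants in it are linked to sinus node dysfunction and arrhythmia. With 579 kb of chromosome 3 on the minus strand (126921607 to 127500347), it is the longest of the 7 genes. The stronger peak, chr3:127304511-127304972, was 8.12-fold with 17 fragments (9.90 to 27.2) and a −log10 q of 10.9, above 70.7% of all peaks by fold. It lay 194 kb downstream of the outermost of the 4 annotated starts and 104 kb downstream of the nearest one. The weaker peak, chr3:127257679-127257950, lay 47.1 kb further into the gene and was 3.54-fold with 9 fragments (4.12 to 17.1). Its −log10 q of 1.56 was near the lowest in the list (1.37), and 39 of the 6166 peaks had a −log10 q this low or lower. The summit of the weaker peak was 6 bp from one end of the interval, which is the case within 10 bp for 0.584% of all peaks.

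On both flanks of Ank2 there was at least 1 summit of higher fold than those inside it. On the side of its 5′ end, 7 summits assigned to Larp7, which encodes a binding protein of the 7SK RNA, lay between 24.8 and 47.2 kb from Ank2, at 13.9- to 141-fold. On the side of its 3′ end, 3 summits lay inside Camk2d, a calcium/calmodulin-dependent kinase gene. The strongest of these, 85.1 kb from Ank2, was 11.2-fold with 18 fragments (10.7 to 28.4), and its interval overlapped that of the stronger Ank2 summit. The other two, 105 and 198 kb from Ank2, were lower than that summit, at 4.70-fold with 7 fragments and 4.96-fold with 13 fragments.

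**Figure D1:**
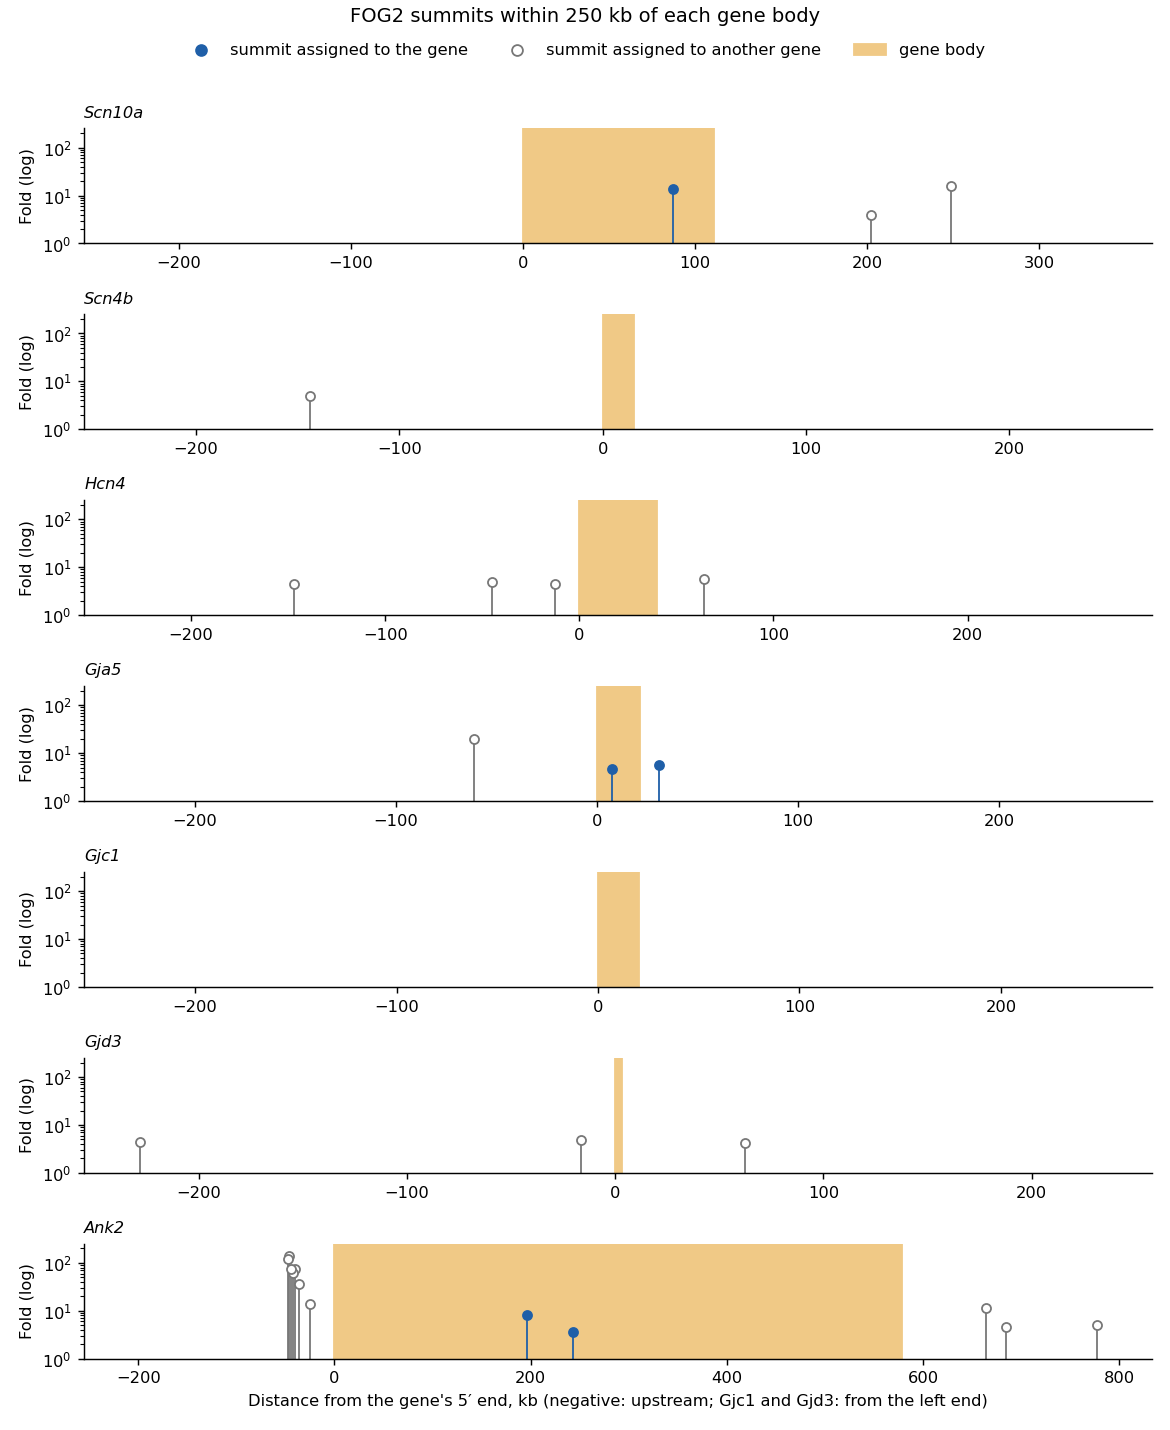
FOG2 summits within 250 kb of each of the 7 gene bodies, plotted as fold over control (log axis) against distance from the 5′ end of the gene in kb. For Gjc1 and Gjd3, whose strand was not available, distance is measured from the left end of the gene instead. Filled points are summits assigned to the gene and open points those assigned to another gene. The filled points stand at Scn10a (14.0-fold), Gja5 (4.60- and 5.80-fold) and Ank2 (8.12- and 3.54-fold), and open points are higher than the filled ones at Scn10a (15.7-fold), Gja5 (19.7-fold) and Ank2 (up to 141-fold).

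By fold the 5 assigned summits ranked between 433 and 6138 of 6166, and their folds of 3.54 to 14.0 lay in the lower part of the range of folds in the list. Their median fold was 5.80, against 6.39 for all peaks, whose quartiles were 5.41 and 8.66. One summit, at Scn10a, lay above the upper quartile, while the inner Gja5 summit and the weaker Ank2 summit lay below the lower quartile. Their median number of fragments was 12, as in the whole list, and 39.4% of all summits rested on 10 or fewer. The Scn10a summit lay apart from the weaker Ank2 summit in both fold and fragment intervals, and overlapped the stronger Ank2 summit in both. Against the outer Gja5 summit the fragment intervals did not overlap, but the fold intervals did (9.58 to 19.8 at Scn10a and 2.97 to 10.5 at Gja5). Against the inner Gja5 summit the fold intervals did not overlap (2.55 to 7.77 at Gja5), but the fragment intervals did. The control levels were 1.22 at Scn10a and 1.83 at the inner Gja5 summit, and the number of input fragments behind them was not recovered. Counting error of the control would widen every fold interval, so where fold intervals lay apart, this holds for pulldown error only. Of the 5 summits, 4 lay inside the gene body. Among the 4702 summits of the whole list with a protein-coding gene within 100 kb, 2830 lay inside one. Those 2830 are 45.9% of all 6166 summits, some of which have no gene within 100 kb. Folds repeat in the list because counts are small, and between 5 and 58 peaks shared the exact fold and p-value of each of the 5 summits, themselves included.

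**Figure D2:**
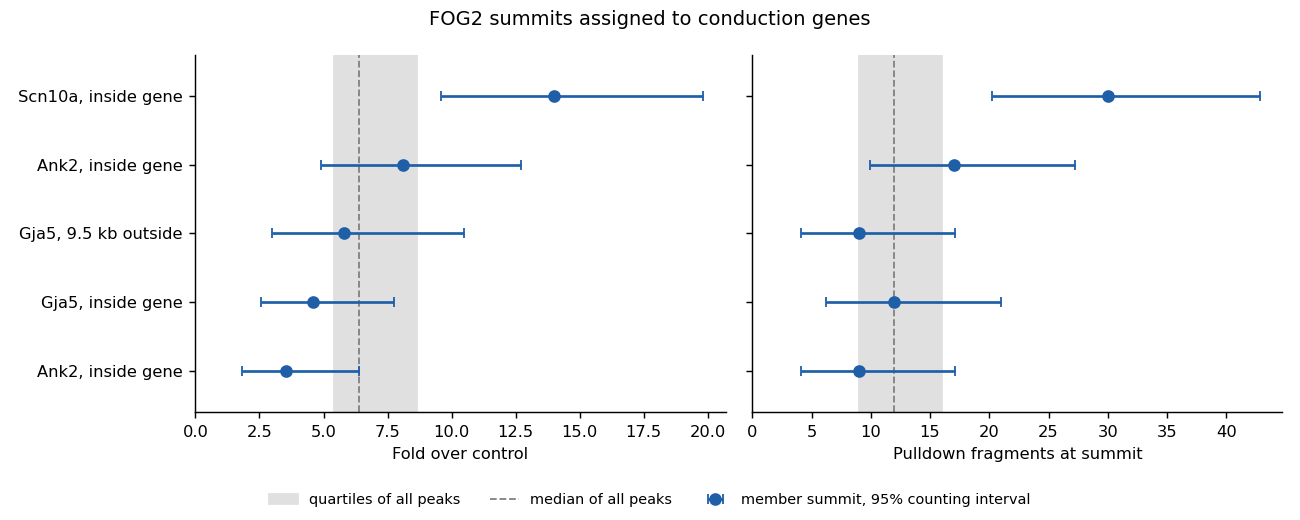
Fold over control (left) and pulldown fragments (right) at the 5 FOG2 summits assigned to conduction genes. Bars are exact 95% Poisson intervals of the pulldown count, with the control level taken as exact. The dashed line is the median of all 6166 peaks and the grey band spans their quartiles. Scn10a stands highest, at 14.0-fold and 30 fragments, and the intervals of the other 4 summits overlap each other.

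Long genes meet more summits, so the counts were read beside the territory of each gene, the stretch of genome closer to it than to any other gene within 100 kb. At the mean density of 2.49 summits per Mb of territory, the 2 summits of Ank2 compare with 1.58 that its 635 kb would hold. Scn10a held 1 where its 143 kb would hold 0.357, and Gja5 held 2 where its 127 kb would hold 0.317. In the decile of territory of each gene, 53.0% of other genes had a summit for Ank2, 28.8% for Scn10a and 18.4% for Gja5. At least 2 summits, the number at Gja5, were held by 4.12% of the genes in its decile, and by 26.8% in that of Ank2. The genes without a summit had small territories, of 46 kb for Hcn4, 38 kb for Gjc1, 29 kb for Scn4b and 11 kb for Gjd3. In their deciles between 1.80% and 8.28% of genes had a summit, and none of the 4 would hold more than 0.115 at the mean density. A count of 0 was thus the usual count for genes of their size.

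Distance to the closest summit does not depend on assignment and was set beside that of all genes. It does depend on gene length, since a longer body contains a summit more readily, and the shares here are over genes of all lengths. Scn10a, Gja5 and Ank2 contained a summit, as did 8.31% of protein-coding genes. The distances of Hcn4 (12.4 kb) and Gjd3 (16.5 kb) were reached or undercut by 11.6% and 12.7% of genes. Scn4b (144 kb) and Gjc1 (382 kb) were on either side of the genome-wide median of 196 kb. The median of the 7 genes was 12.4 kb.

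**Figure D3:**
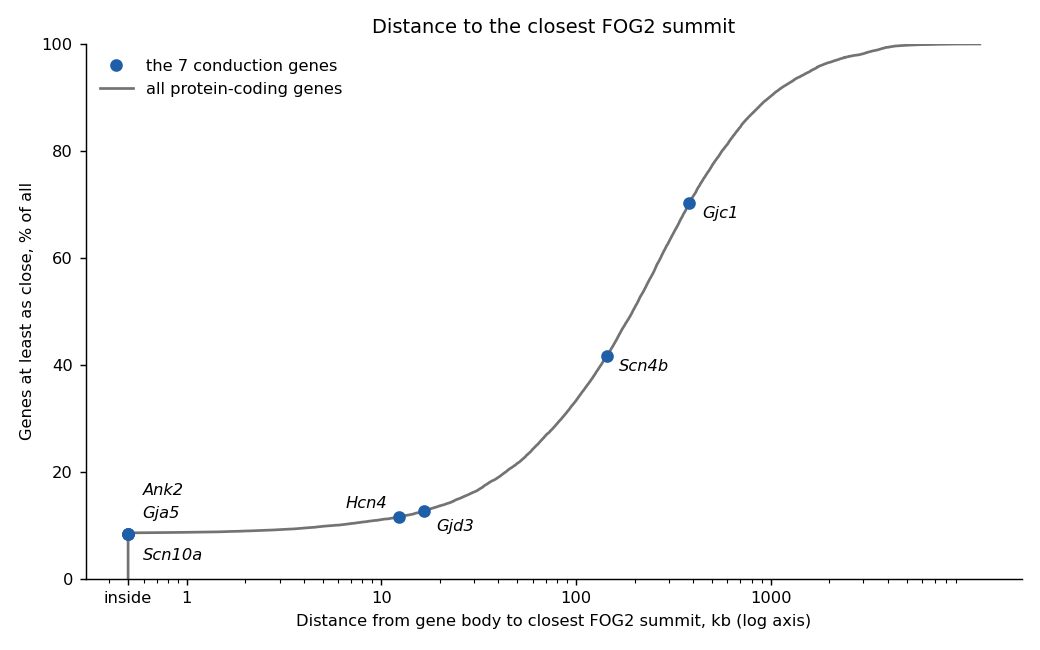
Cumulative share of 21631 protein-coding genes by distance from the gene body to the closest FOG2 summit (log axis, genes containing a summit at the left end), with the 7 conduction genes marked. Scn10a, Gja5 and Ank2 contain a summit, Hcn4 and Gjd3 lie within 20 kb of one, and Scn4b and Gjc1 are 144 and 382 kb away.

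The wider conduction pathway was read from lists of 43 further genes. An assigned summit was present at 3 of the 7 genes above (42.9%), at 10 of the 43 (23.3%) and at 13.6% of all genes. Channel partners held most of them. Of 11 ankyrins and channel partners 6 had a summit, with 19 summits together, where their territories would hold 8.02 at the mean density. Ank3, which encodes ankyrin-G, the ankyrin that binds voltage-gated sodium channels, had 9 summits in 494 kb, the strongest at 18.0-fold with 39 fragments (27.7 to 53.3). Pkp2, which encodes a desmosomal protein of the intercalated disc, had 2, the strongest with 27 recovered fragments (17.8 to 39.3). Fgf13, an intracellular modulator of sodium channels, had 3 (strongest 11.8-fold, 18 fragments). Nedd4l, a ubiquitin ligase that removes channels from the membrane, also had 3 (strongest 9.87-fold, 15 fragments, 74.0 kb outside the gene). Long genes weigh on these counts. The territories of Fgf12 (732 kb) and Fgf13 (695 kb) exceed that of Ank2, in whose decile 53.0% of other genes had a summit. At the mean density Ank3 would hold 1.54 summits, Fgf13 1.73 and Nedd4l 1.14. Fgf12 held 1 where 1.83 would be held.

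The other channel and connexin genes held few summits, as did genes in general (13.6% with one). Of 8 other sodium channel alpha subunit genes 1 had a summit, a single one where their territories would hold 3.20 at the mean density. Of 3 other beta subunit genes and 3 other pacemaker channel genes 0 had one, where 0.212 and 1.53 summits would be held. With so few genes these counts were not read as different from the background. Scn11a, the neighbour of Scn10a on its 5′ side and a sensory neuron channel gene, had none, and its closest summit was the one inside Scn10a, 121 kb away. Of 10 other connexin genes 1 (10.0%) had a summit, a single one where 1.49 would be held. Gja1, which encodes Cx43, the main connexin of working ventricular myocardium, had no summit within 100 kb, its closest being 327 kb away.

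Of 8 regulators of the conduction system 2 had a summit, against 13.6% of all genes, and their 4 summits compare with 3.22 at the mean density, near the background. Tbx3, a repressor that keeps nodal cells from taking on a working myocardial programme, had 3, of which the closest was 18.6 kb away. The strongest lay 92.5 kb from Tbx3 and reached 19.7-fold on 37 fragments (26.1 to 51.0). Irx5, an Iroquois factor that shapes ventricular repolarisation in mice, had 1, which lay 33.1 kb away and reached 7.22-fold on 15 fragments (8.40 to 24.7). Shox2 and Isl1, both needed in the sinoatrial node, Irx3, Id2, Etv1 and Cntn2 had none assigned. The median of the strongest fold was 8.12 over the 3 genes of the 7 with a summit, 10.8 over the 10 further genes and 6.93 over all genes with one. A strongest fold tends to be higher where a gene holds more summits, so these medians do not compare strength per summit. Per summit the median was 5.80 at the 7 genes and 6.39 over all peaks. These lists were described without a test, since one pooled list carries no replicate error.

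**Figure D4:**
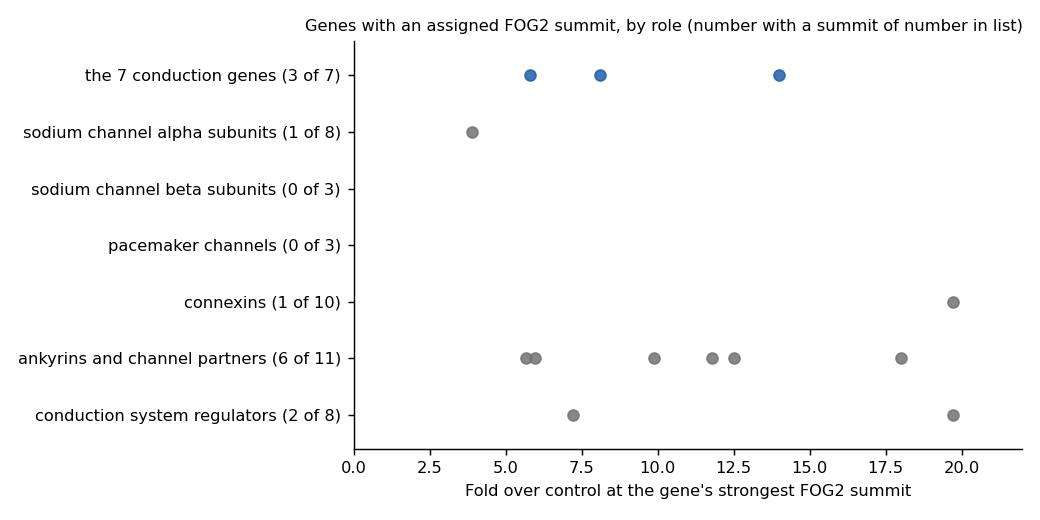
Fold over control at the strongest FOG2 summit of each gene that had one, by role, with the number of genes with a summit of the number listed. Of the 7 conduction genes 3 are shown (5.80-, 8.12- and 14.0-fold), and ankyrins and channel partners hold the most points (6 of 11, from 5.67- to 18.0-fold).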

How the data were processed

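Chromatin from E12.5 mouse heart ventricles was profiled in 2 FOG2 pulldown libraries and 1 input library, grouped by their titles. The authors deposited one list of 6166 peaks from the pooled pulldown. The submitters' processing notes name Bowtie2 2.3.2, SAMtools 1.5, Picard, MACS2 2.1.1 and mm10, with settings not given in the sources used here. As deposited, the fold is a ratio of pulldown to control at the summit, and the deposited −log10 p and −log10 q belong to the same summit. The deposited display score was not used. The list had lost 17 of 6183 numbered peaks, and its name says that blacklisted regions were removed. A pooled list holds no depth per library and no replicate spread.

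Fragments and control levels were solved from fold and −log10 p, with a Poisson tail and 1 added to both sides of the fold. They matched a whole number within 0.001 in 100% of peaks (largest misfit 0.000148), and the control level is in the same fragments. In 83 peaks, none of them assigned to the 7 genes, a second whole number also matched. Gene positions, starts and upstream sequence came from RefSeq (GRCm38.p6), with chromosomes 1 to 19 and X used. Ties between genes were kept (22 summits). No test was run, because peaks are not replicates. The recovery and the assignment were tested on simulated data (Python 3.11.15, SciPy 1.17.1).

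The genes and lists were chosen with earlier results of these data known. The text names the 7 genes, neighbours, genes holding the closest summits, and up to 4 listed genes of highest fold per role. Listed genes without a summit and Exog, Igfbp4, Fgf12 and 4930573H18Rik were named beyond that rule, after their values were seen. Some genes under the rule are not reported here. Alternatives were other peak thresholds, assignment windows, gene ends and gene biotypes.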

Additional observations from a re-analysis of the deposited data

How the results depend on the processing

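Scn10a kept its summit under every alternative run, and the number of the 7 genes with a summit was 2 or 3 throughout. With a −log10 q of at least 5 the summits numbered 2, at Scn10a and Ank2, with a median fold of 11.1, and Gja5 had none. With a fold of at least 5 they numbered 3. Assignment to the nearest gene end within 100 kb left 3, at Gja5 and Scn10a, because both Ank2 summits are over 100 kb from any gene end. With genes of any biotype 4 were left and the outer Gja5 summit went to 4930573H18Rik. Windows of 20 kb or without limit changed none of the 3 counts and medians. By fragments in place of fold, the leading summit was the same at 2 of the 3 genes, and at Gja5 it was the inner one. The counts of genes with any summit within 20 or 100 kb were added after the values were seen. Depth limits the weak summits most, since 6 to 9 fragments cannot rank peaks near the threshold of the list. No paired analysis was possible because the deposited list pools both pulldown libraries.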
